A study of Mus musculus with 346 samples.

Results

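Lgr5 is a surface receptor for R-spondins, and it marks stem cells in the intestinal crypt and other tissues. It was read in 31 of 116 single cells from mammary glands of mice before puberty, and these 31 cells are compared here with the 85 cells in which no Lgr5 read was found. The 116 cells were those of 144 deposited pre-pubertal cells, out of 346 cells in the series, that held at least 100000 reads and 1500 detected genes once mitochondrial, Rps and Rpl genes and genes without a symbol had been set aside. All came from FVB/NJ mice, an inbred laboratory strain, at 2 weeks of age. The other stages of the series were puberty (4.7 to 4.9 weeks) and adulthood (10 weeks). No group carried a transgene or a treatment.

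The cells were labelled as total epithelium, were pooled from several mice and were caught on a Fluidigm C1 chip, which isolates each cell in a chamber and turns its RNA into full-length cDNA without molecular identifiers. Per the study's methods, cells with markers of red blood cells, endothelium and leukocytes were removed by sorting, and the mice were female. The labels tie no cell to a mouse. The pre-pubertal cells are therefore 1 sample, cells were not used as replicates, and no comparison below carries a test. The split was made on Lgr5 counts, so the Lgr5 values describe the split and support nothing. Intervals are exact 95% intervals, Poisson for reads and binomial for shares of cells. They cover counting error only.

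R-spondins are secreted proteins that bind Lgr4, Lgr5 and Lgr6 and the membrane ubiquitin ligases Rnf43 and Znrf3. Binding clears the ligases from the cell surface. Frizzled receptors and their co-receptors Lrp5 and Lrp6, which the ligases would otherwise remove, then stay available for Wnt ligands. In the mammary gland Lgr5 has been described in basal cells, the outer layer of the duct, which matures into contractile myoepithelium.

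Lgr5 lies on chromosome 10 (115450314 to 115587780, GRCm38), Lgr4 on chromosome 2 (109917647 to 110014257) and Lgr6 on chromosome 1 (134983300 to 135105374). Lgr5 shares part of its coding sequence with these paralogs, and the longest identical stretches are shown because full-length reads were counted without a stated rule for reads that fit several genes. The coding sequences are those of GENCODE M21 on GRCm38, and positions count from 1 at the start codon. Capitals mark the identical run, and 15 bases lie on either side. Lgr5-201 and Lgr4-201 shared at most 15 bases in a row, at bases 1432 to 1446 of Lgr5 and 1405 to 1419 of Lgr4.
Lgr5: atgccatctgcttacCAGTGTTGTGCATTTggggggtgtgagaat
Lgr4: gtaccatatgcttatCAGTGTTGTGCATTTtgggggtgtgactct
Lgr5-201 and Lgr6-201 shared at most 18 bases in a row, at bases 214 to 231 of both.
Lgr5: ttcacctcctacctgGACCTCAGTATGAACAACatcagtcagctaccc
Lgr6: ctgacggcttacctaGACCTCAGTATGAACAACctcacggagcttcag
Both runs are short stretches of coding sequences of 2721 bases (Lgr5), 2853 bases (Lgr4) and 2901 bases (Lgr6).

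The share of cells with Lgr5 was 26.7% (18.9 to 35.7). Among the 31 cells the deposited Lgr5 count ran from 1 read to 589 reads with a median of 34. In counts per 1000000 reads (CPM) the lowest cell was at 2.82, the next at 13.4, the median at 134 and the highest at 1332. Of the 31 cells, 24 held at least 10 Lgr5 reads and 20 were at 100 CPM or more. The level was uneven, since 1 cell, number 59, gave 19.3% of all 3055 Lgr5 reads and the top 5 cells gave 61.5%. In the 85 cells at 0, the level that 3 reads would have given was 2.57 to 27.4 CPM, with a median of 10.5. Above the highest of these limits lay 25 of the 31 cells. A low Lgr5 level in some of the 85 cells was thus not detectable at this depth. These limits cover sequencing depth only. Loss of transcripts before sequencing was not measured, so a cell without a read may still have held Lgr5 RNA.

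**Figure D1:**
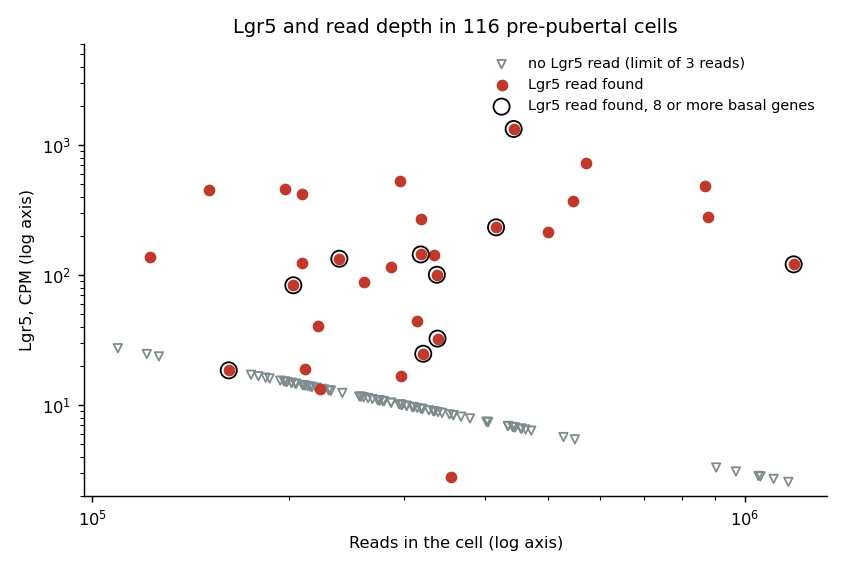
Lgr5 level in CPM against the number of reads in each of 116 pre-pubertal cells, both on log axes. Filled points are the 31 cells with an Lgr5 read, rings mark those with 8 or more of 15 basal genes detected, and triangles show for the 85 cells without a read the level that 3 reads would give. Positive cells occur at all depths, and 25 of 31 lie above 27.4 CPM, the highest of the triangles.

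Read depth differed little between the groups. The median was 314245 reads in cells with Lgr5 (122671 to 1188574) and 287039 in cells without (109387 to 1166502). By depth, Lgr5 was found in 11 of 39 cells of the lowest tertile (28.2%), 9 of 38 of the middle tertile (23.7%) and 11 of 39 of the highest tertile (28.2%). When every cell was thinned at random to 100000 reads, 28 cells kept an Lgr5 read (24.1%, 16.7 to 33.0). Across the 116 cells Spearman's rho between Lgr5 CPM and reads was 0.06, as a description of cells that share libraries and mice.

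The number of genes detected did differ. After thinning, cells with Lgr5 held a median of 3156 genes (quartiles 2877 and 3466) and cells without held 2763 (2436 and 3187). Lgr5 was found in 5 of 39 cells of the lowest tertile by gene number (12.8%, 4.30 to 27.4), 12 of 38 of the middle tertile (31.6%, 17.5 to 48.7) and 14 of 39 of the highest tertile (35.9%, 21.2 to 52.8). The same direction was seen for genes in general: of 9338 genes, 6208 (66.5%) were detected in a larger share of the cells with Lgr5. The part of this difference in the contrasts below was not tested. Where the cells were held to a range of 2500 to 3500 genes, 20 cells with and 47 without Lgr5 remained, with medians of 3108 and 2832 genes.

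Lgr5 was rare at puberty and present in the adult. With the same filter, 3 of 119 pubertal cells (2.52%, 0.523 to 7.19) held an Lgr5 read, at a level of 0.190 CPM and a median depth of 573977 reads. In the adult 8 of 43 cells (18.6%, 8.39 to 33.4) did, at 73.5 CPM, or 29.9 CPM without the adult cell with the most Lgr5 reads. The pre-pubertal level was 75.1 CPM (72.4 to 77.8) in unthinned reads and 61.4 CPM (57.0 to 66.1) after thinning. With 1 sample per stage these values stand side by side without a test.

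To ask what else distinguished the cells with Lgr5, the thinned reads of each group were summed for every gene. Both sums were given as CPM, and log2 ratios of cells with over cells without Lgr5 were taken after adding 5 CPM to both, which understates the difference of low genes. Genes at 10 CPM or more in either group, 9338 in all, were compared. Of these, 1661 (17.8%) were at least 2-fold higher and 1912 (20.5%) at least 2-fold lower in cells with Lgr5, with a median log2 ratio of -0.01. The share differed with level. Between 10 and 50 CPM, 19.0% were higher and 27.7% lower. Between 200 and 1000 CPM, 6.98% were higher and 4.48% lower. At 1000 CPM or more, 2 of 133 genes were higher, Acta2 and Ednrb, and 0 were lower. Counts within the gene lists below are to be read against these percentages.

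The clearest difference was in basal genes, which are those of the myoepithelial layer. Of 15 basal markers 14 passed the minimum of 10 CPM, and 13 were at least 2-fold higher in cells with Lgr5, 0 at least 2-fold lower, with a median log2 ratio of 1.78, where 17.8% of all genes compared were higher and 20.5% lower. All 8 basal markers at 200 CPM or more were among the 13. All 15 were detected in a larger share of the cells with Lgr5. The group included keratins, contractile proteins and transcription factors.

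Krt14, the basal keratin, was at 381 CPM (359 to 403) in cells with Lgr5 and 60.8 CPM (55.7 to 66.3) without, a log2 ratio of 2.55. In the deposited counts it was read in 15 of 31 cells with Lgr5 (48.4%, 30.2 to 66.9) and 25 of 85 without (29.4%, 20.0 to 40.3). Its median per cell was 0 CPM in both groups, the upper quartile was 325 CPM with Lgr5 and 0 without, and the highest cells reached 5240 and 2910 CPM. The groups therefore overlapped, and a minority of cells set the level. Krt5, which pairs with Krt14, had a log2 ratio of 1.69 (110 against 30.6 CPM).

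Acta2, smooth muscle actin, was at 1033 CPM (997 to 1069) with Lgr5 and 226 CPM (216 to 236) without. Its upper quartiles were 590 and 10 CPM, and its highest cells 11070 and 7160 CPM. Mylk, the kinase that activates myosin for contraction, was at 587 against 146.5 CPM, and Tagln, an actin-binding protein of smooth muscle, at 501 against 142 CPM. Myh11, the smooth muscle myosin heavy chain, was at 234 against 57.7 CPM, and Oxtr, the oxytocin receptor through which milk ejection is triggered, at 251 against 69.8 CPM. The same held for regulators. Trp63, needed for basal epithelial identity, was at 48.7 (41.3 to 57.1) against 12.4 CPM (10.1 to 15.0), and Snai2, a repressor of epithelial genes, at 87.7 (77.6 to 98.8) against 17.7 CPM (14.9 to 20.7). Single cells weighed heavily: 1 cell gave 44.4% of the Krt14 reads with Lgr5 and another 56.3% of those without.

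**Figure D2:**
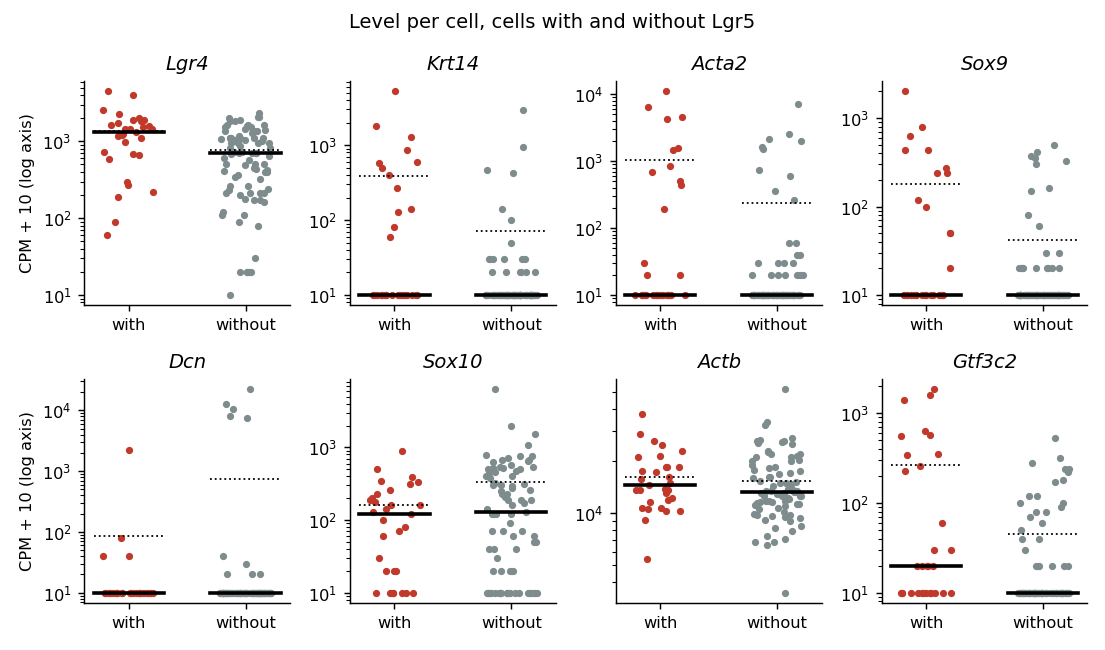
Level per cell after thinning, as CPM plus 10 on a log axis, of 8 genes in 31 cells with Lgr5 (red) and 85 without (grey). Thick lines are medians and dotted lines means over cells. Lgr4 is shifted as a whole (medians 1330 and 690 CPM), whereas Krt14, Acta2 and Sox9 have medians of 0 CPM in both groups and differ in their highest cells, and Actb overlaps throughout.

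The basal reads sat largely in a minority of cells, without a sharp border to the rest. Counted after thinning, 8 or more of the 15 basal genes were detected in 16 of 116 cells, a limit chosen after the values were seen. Of the 31 cells with Lgr5, 10 were of this kind (32.3%, 16.7 to 51.4), and of the 85 without, 6 (7.06%, 2.63 to 14.7). Put the other way, Lgr5 was read in 10 of 16 basal-rich cells (62.5%, 35.4 to 84.8) and in 21 of 100 others (21.0%, 13.5 to 30.3). The direction was the same at other limits. With at least 4 genes the shares were 54.8% and 27.1%, with at least 6 genes 35.5% and 11.8%, and with at least 12 genes 16.1% and 3.53%.

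In the 10 basal-rich cells with Lgr5 the deposited Lgr5 count was 144, 11, 46, 589, 17, 3, 8, 97, 34 and 32 reads. Their summed basal level ran from 590 to 35240 CPM with a median of 7740, and in the 6 basal-rich cells without Lgr5 from 620 to 22640 CPM with a median of 6040. These ranges overlap. The other 21 cells with Lgr5 had a median basal level of 90 CPM and the other 79 without 80 CPM. Their highest cells reached 2420 and 10350 CPM, so the limit on gene number did not separate the cells by basal level. Lgr5 itself was no higher in the basal-rich cells, with a median of 111 CPM against 144 CPM in the other 21 positive cells. The basal-rich cells with Lgr5 held medians of 329362 reads and 3276 genes, against 295771 reads and 3098 genes in the other cells with Lgr5. By number of genes detected, 10 of the 16 basal-rich cells lay in the highest tertile, 4 in the middle and 2 in the lowest, and the part of gene number in their share of cells with Lgr5 was not tested.

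Without the 16 basal-rich cells, 12 basal genes passed the minimum, 5 were at least 2-fold higher and 5 at least 2-fold lower with Lgr5, and the median log2 ratio was -0.13. Of all 9144 genes compared without them, 18.0% were higher and 26.1% lower. The basal-rich cells were chosen by basal genes, so their removal was bound to lower basal levels in both groups. Krt14 (21.4 against 2.78 CPM, 3 of 21 and 13 of 79 cells), Krt5, Trp63, Cxcl14 and Snai2 stayed 2-fold higher, while Acta2, Mylk, Myh11, Krt17 and Myl9 were 2-fold lower. These ratios rest on few cells with Lgr5. Snai2 was read in 1 of 21 cells with Lgr5 and 11 of 79 without, Krt5 in 3 and 7, and Mylk in 2 and 18. Cells numbered 38 to 144 were shallower than cells 1 to 37 (medians of 283354 and 936776 reads). In cells 38 to 144, 10 of 14 basal genes were 2-fold higher and 0 lower. Of all 9215 genes compared there, 1629 were higher and 2075 lower. Of these cells, 9 of 27 with Lgr5 and 5 of 77 without were basal-rich.

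Basal-rich cells also carried Schwann genes. Schwann cells are the glia of peripheral nerves, and nearly every pre-pubertal cell held their markers: at least 8 of 24 Schwann genes were detected after thinning in 31 of 31 cells with Lgr5 and 84 of 85 without. The 10 basal-rich cells with Lgr5 held 10 to 19 of the 24, with a median of 15.5. Of 15 luminal markers a median of 1 was detected in either group. At least 3 were detected in 8 of 31 cells with Lgr5 (25.8%, 11.9 to 44.6) and 4 of 85 without (4.71%, 1.297 to 11.6). In level, 2 of 10 luminal markers compared were at least 2-fold higher with Lgr5 and 4 lower, with a median log2 ratio of -0.36. Of 9 pan-epithelial markers, those of epithelia in general, 3 were higher and 4 lower, with a median of -0.99. The higher ones included Krt14 and Krt5, which the basal list also holds. The lower ones included Krt18, which the luminal list also holds. Among all genes compared 17.8% were higher and 20.5% lower. As shares of lists of unequal length, a median of 70.8% of the Schwann list and 26.7% of the basal list was detected in cells with Lgr5, and 66.7% and 13.3% in cells without. The basal share was the larger in 8 of 31 cells with Lgr5 and 4 of 85 without, so basal markers led in a minority of the cells. Luminal and pan-epithelial markers took no part in this comparison of shares.

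**Figure D3:**
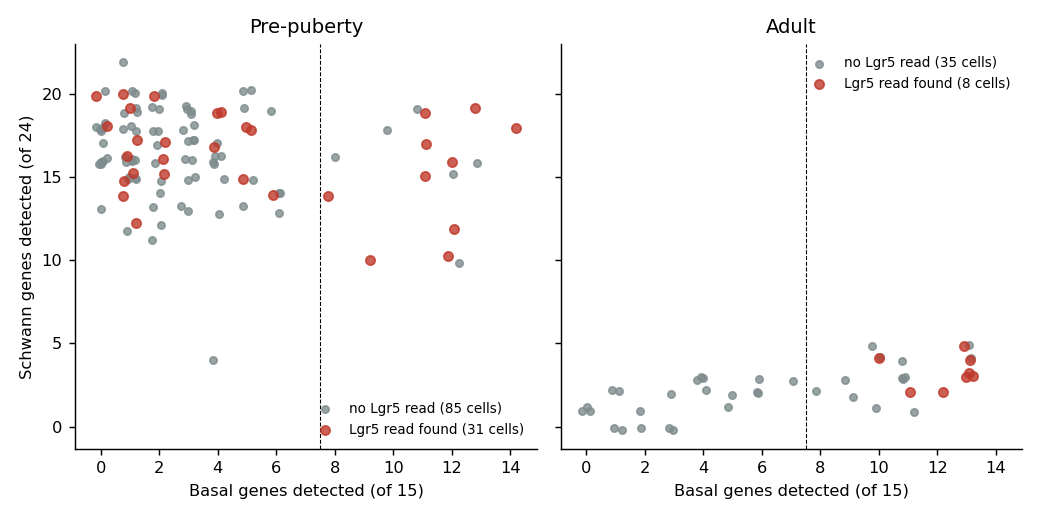
Number of 24 Schwann genes against number of 15 basal genes detected per cell after thinning to 100000 reads, at pre-puberty (left) and in the adult (right), with small random offsets so that points do not cover each other. Red points are cells with an Lgr5 read, and the dashed line marks 8 basal genes. Of the 31 pre-pubertal cells with Lgr5, 10 lie to the right of the line, and all hold at least 10 Schwann genes, whereas all 8 adult cells with Lgr5 lie to the right and hold at most 5. Adult cells without Lgr5 also hold at most 5.

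The adult cells with Lgr5 differed from the pre-pubertal ones. All 8 held at least 8 basal genes (10 to 13, median 13), against 13 of the 35 adult cells without Lgr5. Their summed basal level was 9040 to 43590 CPM, with a median of 29835. Few Schwann genes were detected in adult cells of either group, 2 to 5 of the 24 with Lgr5 and 0 to 5 without. The 3 pubertal cells with Lgr5 held 5 to 13 basal genes and 3 to 4 Schwann genes. Pubertal cells without Lgr5 held a median of 1 Schwann gene (0 to 12). Adult and pubertal cells took no part in the pre-pubertal split, and these stages are single samples.

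Levels of the Schwann genes differed less. Of the 24 genes, 1 was at least 2-fold higher, Lgi4, and 4 were at least 2-fold lower, with a median log2 ratio of -0.30. Both shares are below those of all genes compared, most of which were at lower levels. Between 200 and 1000 CPM, where Sox10 and Gfra3 lay, only 4.48% of all genes were lower. Of the 24 Schwann genes, 18 had a log2 ratio below 0 and 6 above. The median number of Schwann genes detected was 17 with and 16 without Lgr5. Sox10, the transcription factor that specifies the glial lineage, was at 150.97 CPM (138 to 165) with Lgr5 and 325 CPM (313 to 338) without, but its medians per cell were 110 and 120 CPM and it was read in 24 of 31 and 63 of 85 cells, so that the ratio came from the highest cells without Lgr5, up to 6370 CPM. Gfra3, a receptor of the GDNF family, was at 281 against 582 CPM and read in 16 of 31 and 64 of 85 cells. Scn7a, the most abundant gene of the list, was at 5254 and 6591 CPM and read in every cell. Scn7a and Ngfr also appear in the study's list of adult basal genes, so the Schwann list is not exclusive of the basal lineage.

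Of 17 myelin genes compared 1 was higher and 3 were lower, with a median of -0.21. Pmp22, a structural protein of peripheral myelin, was at 3924 and 5193 CPM. Of 20 genes of immature and non-myelinating Schwann cells 3 were higher and 4 lower (median -0.35). Among them Ednrb, the endothelin receptor of neural crest derivatives, was at 1180 CPM (1142 to 1219) against 557 (541 to 573), in 24 of 31 and 49 of 85 cells, with no cell giving more than 11.7% of the reads. Its log2 ratio of 1.08 was 1.13 without the basal-rich cells and 0.75 without 14 cells rich in genes of dividing cells. Of 21 neural crest and glial transcription factors, 8 were higher and 2 lower (median 0.49). The higher ones included Snai2, which is also in the basal list, and Sox9, and the lower ones included Sox10. The log2 ratio of Sox9 went from 2.24 to -0.00038 without the basal-rich cells. Ngfr, the low-affinity neurotrophin receptor, was read in 17 of 31 (54.8%) and 41 of 85 cells (48.2%), at 38.7 and 57.2 CPM.

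The Wnt pathway was described from receptors to targets. Lgr4, the broadly used paralog, was read in 31 of 31 cells with and 84 of 85 without Lgr5. Per cell it ran from 50 to 4480 CPM, with a median of 1330 (quartiles 665 and 1785), in cells with Lgr5. Without Lgr5 it ran from 0 to 2360 CPM, with a median of 690 (quartiles 220 and 1090). The groups overlapped, but the upper quartile without Lgr5 lay below the median with Lgr5, and no single cell gave more than 10.6% of the reads. The summed levels were 1365 CPM (1324 to 1407) and 764 CPM (746 to 783), a log2 ratio of 0.83. It was 0.89 among cells with 2500 to 3500 genes and 0.49 without the basal-rich cells. Lgr6 was read in 1 cell of each group in the deposited counts. Per length of transcript over all 116 cells, Lgr4 was at 183 RPKM (reads per 1000 bases per 1000000 reads), Lgr5 at 13.0 and Lgr6 at 0.381.

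Of the 12 R-spondin and Wnt receptor genes compared, Lgr4 included and Lgr5 left out, 5 were at least 2-fold higher and 0 lower, with a median of 0.87. Of the 5, Ryk, a Wnt co-receptor, was at 172 against 53.1 CPM and read in 19 of 31 and 31 of 85 cells. The other 4 were Lrp6, Fzd5, Fzd6 and Fzd7, each read in at most 10 cells with Lgr5, and 1 cell gave 30.5% to 79.7% of their reads there. The log2 ratio of Lrp6 went from 1.37 to -0.82 without the basal-rich cells. Fzd1 and Fzd3, which were more widely read, were at 230 against 218 and 379 against 348 CPM. Znrf3 was at 96.5 against 149.4 CPM. Rspo2, Rspo3 and Rspo4 had no read after thinning in either group, which leaves room for up to 1.19 CPM with and 0.434 CPM without Lgr5.

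Wnt ligands were scarce, with 4 of 19 at 10 CPM or more, of which 1 was higher. Among 6 antagonists compared 1 was higher and 1 lower. Sostdc1, a secreted inhibitor of Wnt and BMP signals, was at 1016 (981 to 1053) against 642 CPM (625 to 659). Sfrp1, which binds Wnt proteins, was at 462 (439 to 487) against 805 CPM (786 to 824). Wif1, another Wnt-binding protein, was at 52.9 against 0.118 CPM and came from 4 cells with Lgr5 and 1 without, and its log2 ratio went from 3.50 to -0.036 without the basal-rich cells. Sfrp5 was lower, at 24.8 against 63.8 CPM. Of 13 intracellular transducers 1 was higher and 1 lower, with a median of 0.10, and Gsk3b was at 1402 and 1569 CPM.

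Of 15 Wnt target and intestinal stem cell genes compared, 5 were higher and 2 lower, with a median of 0.53. Axin2, a direct Wnt target, was near the limit in both groups, at 1.61 (0.524 to 3.76) and 2.59 CPM (1.62 to 3.92), and Ascl2, Olfm4 and Sp5 had no read after thinning. Sox9, a transcription factor of many progenitors, was at 170 CPM (155.8 to 185.2) with Lgr5 and 32.1 CPM (28.4 to 36.2) without, in 13 of 31 and 21 of 85 cells. Its log2 ratio of 2.24 went to -0.00038 without the basal-rich cells. Ccnd1, a cyclin of the G1 phase, was at 654 against 372 CPM, and Cd44, an adhesion receptor, at 699 against 1042 CPM. Of 9 mammary stem and progenitor markers 2 were higher and 2 lower. Tspan8, 1 of the higher ones, owed 92.9% of its reads with Lgr5 to a single cell, and Cd24a was at 120 against 39.5 CPM in 12 and 16 cells.

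**Figure D4:**
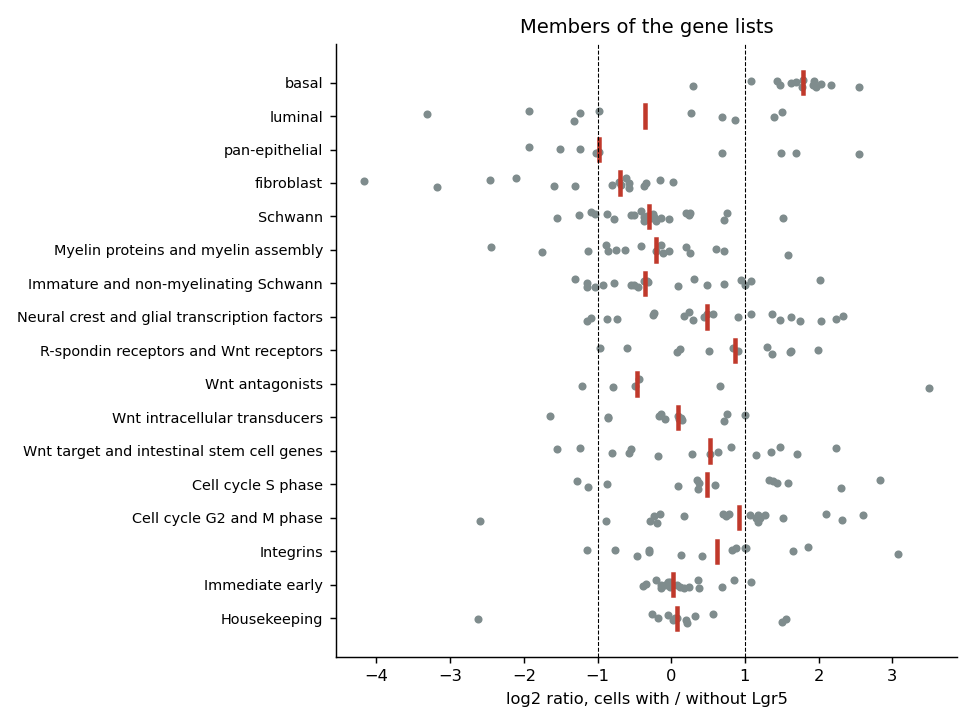
Log2 ratio of cells with over cells without Lgr5 for the members at 10 CPM or more (grey points) of 17 gene lists, with the median of each list as a red bar and dashed lines at 2-fold. The basal list stands at a median of 1.78, with 13 of 14 points to the right of the line, while the Schwann list is at -0.30 and the housekeeping list at 0.08.

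Genes of dividing cells were higher, again in few cells. Of 20 genes of the G2 and M phases 10 were higher and 1 lower (median 0.92), and of 14 genes of the S phase 6 were higher and 2 lower (median 0.48). At least 10 of the 20 G2 and M genes were detected in 7 of 31 cells with Lgr5 (22.6%, 9.59 to 41.1) and 7 of 85 without (8.24%, 3.37 to 16.2). A single cell gave 33.1% of the G2 and M reads with Lgr5. Without the 14 cells with at least 10 of these genes the median was -0.57. The 14 cells were chosen by genes of this same list, so their removal was bound to lower its level in both groups. Top2a, which untangles DNA before division, was at 388 against 172 CPM and Mki67, a marker of cycling cells, at 191 against 80.4 CPM.

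Fibroblast genes were lower with Lgr5, with 0 of 16 at least 2-fold higher, 6 lower and a median of -0.70. The strongest differences came from few cells without Lgr5. Dcn, a matrix proteoglycan, was at 75.2 CPM in 4 cells with Lgr5 and at 721 CPM in 10 cells without, and 10 or more of 19 fibroblast genes were detected in 1 cell with and 4 cells without Lgr5. Without those 5 cells, which were chosen by genes of this same list, the median of the list was -0.07. The log2 ratio of Dcn went from -3.18 to -3.86. Collagen genes and laminins were near or below the shares of all genes compared, which were not matched for level. Of 25 collagen chains 3 were higher and 4 lower (median -0.19), and of 19 laminin and basement membrane genes 3 were higher and 2 lower (median 0.02).

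Among growth factor pathways, Fgfr2, an FGF receptor of epithelia, was at 125 against 21.7 CPM, in 10 and 12 cells, and its log2 ratio went from 2.28 to 0.05 without the basal-rich cells. Igfbp5, an IGF-binding protein, was at 691 against 266 CPM, and its log2 ratio went from 1.36 to -0.06. Itga7, a laminin receptor, was at 105 against 30.2 CPM, and its log2 ratio went from 1.65 to 1.78. Of 14 integrins 5 were higher and 1 lower (median 0.62), and of 16 genes of TGF-beta and BMP signalling 2 were higher and 6 lower (median -0.10). Immediate early genes, which are induced within minutes of a stimulus such as cell isolation, differed little, with 1 of 18 higher, 0 lower and a median of 0.03, and Fos was at 5037 and 5173 CPM. Of 13 housekeeping genes 2 were higher and 1 lower (median 0.08), and Actb was at 16285 and 15414 CPM.

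Genes were also ranked without regard to function. To keep single cells from setting the order, only genes at 50 CPM or more in the higher group, read in at least 30% of its cells and with no cell giving over 25% of its reads, were ranked. The 10 highest were Gtf3c2, Ift22, Rbm17, Snapin, Cav1, Snhg1, Hibadh, Trim8, Tagln and Gas1, with log2 ratios of 2.68 down to 1.77. Gtf3c2, a subunit of the RNA polymerase III factor TFIIIC (GRCm38, chromosome 5, 31156006 to 31180144), was at 254 CPM (237 to 273) with Lgr5 and 35.4 CPM (31.5 to 39.6) without, and was read in 18 of 31 and 27 of 85 cells. Its upper quartiles per cell were 290 and 10 CPM and its highest cells 1860 and 520 CPM. Its log2 ratio was 2.97 in cells 38 to 144 and -1.43 in cells 1 to 37, which held only 4 cells with Lgr5.

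Rbm17, a splicing factor, was read in 15 of 31 and 18 of 85 cells, at 80.6 against 13.3 CPM. Cav1, the coat protein of caveolae, was read in 10 and 17 cells, at 249 against 58.0 CPM. Snhg1, the host of small nucleolar RNAs, was read in 21 and 33 cells, at 240 against 57.3 CPM, and overlaps Snord22. Snapin overlaps Ilf2, and Tagln overlaps Pcsk7. Without the basal-rich cells all 10 kept their sign and 7 were still 2-fold higher, while Cav1 was at 0.98, Gas1 at 0.09 and Tagln at 0.01. In cells 1 to 37, 7 of the 10 had the same sign. The 10 were picked for the largest ratios over cells that include these, so such repeats are no separate support.

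The 10 lowest were BC004004, Prr14l, Cers4, Insc, Abcd3, Helz, Maoa, Lrp1, Lyst and Pikfyve, with log2 ratios of -3.13 up to -2.35. Cers4, a ceramide synthase, was at 19.4 CPM (14.8 to 24.9) with Lgr5 and 175 CPM (166 to 184) without, yet was read in a similar share of cells, 15 of 31 and 38 of 85, and differed in its highest cells, 190 and 3110 CPM. Maoa, a monoamine oxidase, was read in 7 and 26 cells, at 11.9 against 95.9 CPM. Lrp1, an endocytic receptor of the LDL receptor family, was read in 6 and 34 cells, at 5.48 against 53.5 CPM. Pikfyve, a phosphoinositide kinase of endosomes, was at 37.7 against 213 CPM. All 10 were still at least 2-fold lower without the basal-rich cells, and 9 of 10 had the same sign in cells 1 to 37. The 10 were likewise picked over all these cells, so this is no separate support.

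**Figure D5:**
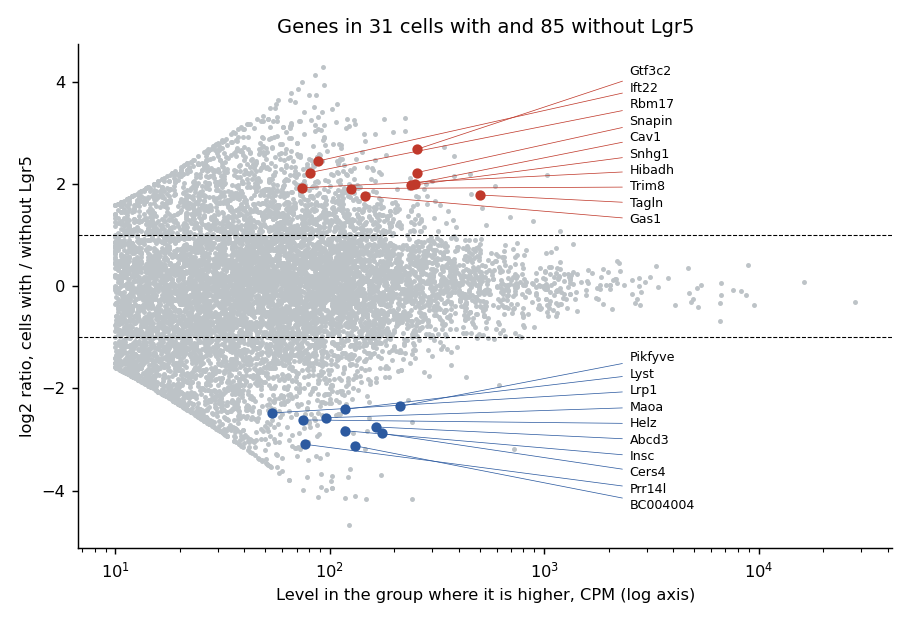
Log2 ratio of cells with over cells without Lgr5 against the CPM in the group where the gene is higher (log axis), for 9338 genes. Red and blue points are the 10 highest and 10 lowest ranked genes, and dashed lines mark 2-fold. The spread narrows with level, and at 1000 CPM or more 2 of 133 genes lie above the upper line.

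The genes whose level across the 116 cells followed Lgr5 most closely were found by Spearman's rho over 3429 genes read in at least 30% of the cells. The values are a description over cells of 1 sample, and all were weak. The highest were Irf2bpl at 0.37, Tsc22d1 at 0.34, Zbtb11 at 0.34, Ate1 at 0.33 and Atp2a2 at 0.33, against a median of 0.05 over all genes ranked. Irf2bpl, a nuclear protein and putative ubiquitin ligase, was read in 27 of 31 cells with Lgr5 (87.1%) and 39 of 85 without (45.9%), at 86.5 against 47.2 CPM. Atp2a2, the calcium pump of the endoplasmic reticulum, was read in 25 and 48 cells, at 309 against 94.2 CPM. Tsc22d1, a transcriptional regulator of TGF-beta responses, was at 513 against 173 CPM but had a log2 ratio of -0.86 without the basal-rich cells. Zbtb11 overlaps Rpl24.

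The lowest were Ppp1r9a at -0.31, Abi3bp at -0.29, Slc4a7 at -0.27, Sh3pxd2a at -0.27 and Rnase4 at -0.25. Abi3bp, a matrix protein, was widely read, in 21 of 31 and 72 of 85 cells, with medians per cell of 40 and 270 CPM and summed levels of 157.7 (144.1 to 172.4) and 613 CPM (597 to 630). Its log2 ratio was -1.93, and -1.92 without the basal-rich cells. Rnase4, a secreted ribonuclease that overlaps Ang, had medians of 210 and 550 CPM.

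Distances between whole profiles, with Lgr5 left out, were close. Over the 500 genes that differed most between each pair of cells, the median distance was 6.24 between cells with Lgr5, 6.39 between cells without and 6.32 across the groups, in log2 units. Among the 10 nearest cells of a cell with Lgr5, 49.4% held Lgr5 on average, where 26.1% of all other cells did. Among the 10 nearest of a cell without Lgr5 the share was 45.6%, where 27.0% of all other cells held Lgr5. Cells with Lgr5 were thus over-represented among the nearest cells of both groups.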

How the data were processed

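Single cells had been profiled by full-length RNA sequencing on the C1 platform. The authors aligned read pairs to mm10 with Subread 1.4.6 per the labels, counted pairs over RefSeq exons with featureCounts and deposited raw counts per Entrez gene with each gene's length in bases. The rules for reads shared between genes and for strand are not given in the sources used here. Doublets were not called, since the authors inspected each capture site. The series design gives 8 mice for the stage and the study's methods give more per sort.

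Of 27179 genes, 1904 without a RefSeq symbol (GRCm38.p6), 15 mitochondrial and 124 Rps and Rpl genes were removed, which left 25136. Cells with at least 100000 reads and 1500 genes were kept (109387 to 1188574 reads). Each was thinned to 100000 reads (numpy 2.4.6, pandas 2.3.3), reads were summed per group, and log2 ratios were taken as stated above. Exact intervals came from scipy 1.17.1. No test was made, as cells of 1 sample are not replicates, and the step was tested on simulated data. RPKM was computed from the counts and deposited lengths.

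The genes named were Lgr4, Lgr6, Ngfr and Krt14, per gene list those highest in level and those past 2-fold, the 10 highest and 10 lowest ratios under the ranking limits given above, and the 5 highest and 5 lowest rho (on log2 of thinned CPM plus 10). Ccnd1, Axin2, Znrf3 and other list members given for their role were added after their values were seen. All 649 listed genes matched. The split, the lists and the rules were chosen with earlier results of these data known. The alternatives for cells with 2500 to 3500 genes and without basal-rich, dividing or fibroblast-rich cells were chosen after seeing the data. Results of 2 genes of the lists are not reported here.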

Additional observations from a re-analysis of the deposited data

Results flagged for a closer look

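Lgr5 reads were also present in the 28 pre-pubertal cells that did not pass the coverage filter, which take no part in the comparison. In 8 of them (28.6%, 13.2 to 48.7) an Lgr5 read was found, 57 reads in all, although their median depth was 11321 reads. The level of the summed reads was 107 CPM (81.1 to 139), or 80.0 CPM without the cell with the most Lgr5 reads, against 75.1 CPM in the cells that passed. The pubertal and adult cells under the filter, 17 and 23 cells, held 0 Lgr5 reads, which allows up to 4.94 and 5.02 CPM. Of the 8 cells 2 held at least 8 basal genes, and of the 20 without Lgr5 1 did, in unthinned counts of unequal depth. All 8 held at least 8 Schwann genes.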

How the results depend on the processing

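The share of cells with Lgr5 stayed within its interval under every alternative tried, between 21.0% and 29.9%, and the numbers of genes at least 2-fold higher and lower stayed within 1.5 times 1661 and 1912. The Lgr5 level of 61.4 CPM moved to 75.1 CPM in unthinned reads, 53.2 CPM in cells 38 to 144, 50.2 CPM in cells with 150000 to 500000 reads, 50.7 CPM without cell 59, 78.7 CPM in cells with 2500 to 3500 genes, 49.5 CPM without the basal-rich cells and 49.2 CPM without the 14 dividing cells. Of 116 genes of the lists and rankings past 2-fold, 93 stayed past 2-fold among cells with 2500 to 3500 genes, 104 in cells 38 to 144 and 80 without the basal-rich cells. The genes were taken as past 2-fold over cells that include these, so the counts are no separate support. Without the basal-rich cells, which were chosen by basal genes, the basal median turned to -0.13. The log2 ratio without them turned to -0.86 for Tsc22d1, -0.82 for Lrp6, -0.036 for Wif1, -0.00038 for Sox9, -0.019 for Tspan8, -0.056 for Igfbp5, -0.77 for Hes6, -0.34 for Tgfbr1, -0.43 for Hspb1, -1.22 for Acta2, -3.23 for Mylk, -0.12 for Gata3, -2.24 for Krt17, -1.49 for Myh11, -0.48 for Cnn1, -1.14 for Myl9 and -0.27 for Oxtr. Without the dividing cells it turned to -1.07 for Tspan8, -1.25 for Rrm2, -0.25 for Tyms, -0.67 for Top2a and -0.57 for Mki67. Without the fibroblast-rich cells it turned to -0.070 for Wnt2, -0.040 for Ccl2 and -0.40 for Emcn, with 200000 reads and 2000 genes to -0.22, -0.57 and -0.077, and with 2500 to 3500 genes to -0.33, -1.45 and -0.55 for the same genes and to -1.12 for Lrp6. Etv5 turned to -0.044 in cells 38 to 144 and to -0.023 in cells with 150000 to 500000 reads. Some of the cells left out were chosen by the gene's own list. The cause of these changes was not tested for any gene. No paired analysis was possible because the cell numbers in the labels only count cells and pair none, and no test was made.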
